A study of Homo sapiens with 8 samples.

Results

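A set of 4 genes is described here in the human hepatocellular carcinoma (HCC) line HepG2 and in libraries labelled as Hep3B, another HCC line: AQP3, RRAD, VGF and ARC, 4 of the 17253 genes with 1 or more assigned transcripts. They were picked because their level rose stepwise or strongly in these same data, so the size of the rise in HepG2, and of ARC in both lines, is the ground on which they were chosen and is given as a description with no test. RNA was sequenced after 48 h from cells without treatment (control), with 2500 µM (HepG2) or 1700 µM (Hep3B) sodium pentaborate pentahydrate (NaB, a boron salt), with 30 µM curcumin and 6 µM piperine (Cur+Pip, the turmeric polyphenol with a pepper alkaloid that slows its breakdown), or with NaB and Cur+Pip at those doses (combination). Each of the 8 conditions is 1 library, and the NaB dose differs between the lines, so the lines were not taken as replicates of each other. Whether the control cells received the solvent of Cur and Pip was not given in the sources used here.

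AQP3 encodes an aquaglyceroporin, a membrane channel for water, glycerol and hydrogen peroxide that is best known from the basolateral membrane of kidney collecting duct and from skin. RRAD is a member of the RGK family of small GTPases, which bind the beta subunit of L-type calcium channels and reduce the calcium current, and it is also known as a target gene of p53. VGF is a granin-like precursor that neurons and endocrine cells store in secretory granules and that prohormone convertases cut into peptides. It was first found as a gene induced by nerve growth factor. ARC is an immediate early gene of neurons that descends from the gag gene of a retrotransposon, forms capsid-like shells and takes part in the removal of AMPA receptors from synapses. All except AQP3 are known for rapid induction by growth factor, calcium or stress signals, and none is a marker of hepatocytes.

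The label Hep3B was checked against 20 genes that mark hepatocytes. Of these, 16 to 20 had at least 1 FPKM, the fragments of a transcript scaled to its length and to the depth of the library, in each HepG2 library, with a summed level of 7749 to 17031 FPKM, and 0 to 2 did in each Hep3B-labelled library, where the sum was 0.456 to 6.55 FPKM. Since the hepatocyte markers were at or near 0, those libraries are called the Hep3B-labelled libraries throughout. Of 12 neuroendocrine and neuronal markers, 3 had at least 1 FPKM in every HepG2 library, and 3 to 5 did in the Hep3B-labelled ones; CHGA, INSM1, NEUROD1, STMN2 and RBFOX3 were at 0 in all 8. The summed level of these 12 markers was 166.8, 83.9, 121.3 and 399.6 FPKM in the HepG2 control, NaB, Cur+Pip and combination libraries, mostly TUBB3, a tubulin that many tumour lines make. Its part in the results on VGF and ARC was not tested. Of 9 squamous epithelial markers, 1 to 3 reached 1 FPKM in any library, and SFN, a 14-3-3 protein gene of epithelia that p53 induces, held most of the sum. The log2 change of SFN after Cur+Pip and the combination was 2.83 and 1.38 in HepG2 and -1.09 and -1.78 in the Hep3B-labelled libraries. There it went from 364.3 to 105.5 FPKM after the combination. These signs were those of AQP3, but after NaB in HepG2 SFN was at -1.11 and AQP3 at 0.84. From Cur+Pip to the combination in HepG2, SFN went from 184.3 to 66.5 FPKM and AQP3 from 150.6 to 266.5. After the Hep3B-labelled combination KRT4 was lower too, while KRT14, listed at 0 in the control, was higher. After Cur+Pip and the combination 6 and 8 of the 20 hepatocyte genes were past a log2 change of 1.5 downward in HepG2, beside 10.2 and 11.5% of all genes. Upward 4 and 3 of the 20 were past it, beside 8.98 and 8.02% of all genes. These were ALB, AFP and APOC3, with APOA2 after Cur+Pip, all listed at 0 in the HepG2 control and not read as a rise. The medians over all 20, with these included, were -1.19 and -1.45. The part of SFN and of the hepatocyte genes in the changes of AQP3, RRAD, VGF and ARC was not tested.

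All 4 genes lie on the minus strand of GRCh38, ARC (ENSG00000198576) with 3 exons at the position given with its values. AQP3 (ENSG00000165272) is at chr9:33441156-33447596 with 6 exons, RRAD (ENSG00000166592) at chr16:66921685-66925535 with 5 exons, and VGF (ENSG00000128564) at chr7:101162509-101165569 with 2 exons.

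The RefSeq promoter table (GRCh38.p14) held 2 of the 4, AQP3 and VGF. The 250 bases before each start are shown because the assembled transcripts of these genes began at different places in and before this window. Capitals in AQP3 mark a match to GCGNGGGCG, the letters bound by EGR factors, and a TATA box (TATAAA). Capitals in VGF mark a cAMP response element or CRE (TGACGTCA), an E-box (CACGTG) and a TATA box read on the other strand.
AQP3, chr9:33447594-33447843, minus strand: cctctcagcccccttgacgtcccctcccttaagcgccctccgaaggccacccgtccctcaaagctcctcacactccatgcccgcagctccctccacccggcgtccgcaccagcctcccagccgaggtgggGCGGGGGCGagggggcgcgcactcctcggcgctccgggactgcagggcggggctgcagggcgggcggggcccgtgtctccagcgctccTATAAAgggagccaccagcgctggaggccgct
VGF, chr7:101165570-101165819, minus strand: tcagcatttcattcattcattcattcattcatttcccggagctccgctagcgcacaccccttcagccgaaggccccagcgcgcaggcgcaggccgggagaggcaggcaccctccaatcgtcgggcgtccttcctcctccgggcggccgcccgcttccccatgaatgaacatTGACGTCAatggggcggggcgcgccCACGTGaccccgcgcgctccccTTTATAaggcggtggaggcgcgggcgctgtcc
Both windows held TATAAA, on either strand, from 32 to 27 bases before the start, as did 10.7% of the 35116 promoter windows of this length at some position. The complete CRE of VGF lay 79 to 72 bases before the start, and 1.65% of all windows held one. AQP3 held no complete CRE and 1 of its short forms (TGACG), which 21.2% of windows held. Both held 1 match to GCGNGGGCG, which 8.41% of windows held; in AQP3 it overlapped a GC box (GGGCGG). GC boxes numbered 4 in AQP3 and 3 in VGF, against 42.6% of windows with 1 or more. CACGTG was in VGF alone of the pair and in 6.34% of windows, and CCAAT likewise was in VGF alone and in 32.0%. Neither window held the AP-1 letters TGACTCA, which were in 4.20% of windows. These are matches of letters and not measured binding.

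AQP3 in HepG2 was at 7.13 ± 0.772 FPKM in the control, 13.5 ± 1.15 after NaB, 150.6 ± 6.92 after Cur+Pip and 266.5 ± 11.9 after the combination, where ± is the distance to either end of the 95% interval that Cufflinks gives for that 1 library and holds no spread between cultures. The 4 intervals did not overlap, and the order was control, NaB, Cur+Pip, combination. Such an ordered rise with disjoint intervals was found for 1.41% of the 13431 genes tested in HepG2. In the Hep3B-labelled libraries the order was turned round: 203.8 ± 7.70 in the control, 172.6 ± 7.88 after NaB, 85.3 ± 4.01 after Cur+Pip and 54.7 ± 3.06 after the combination. An ordered fall of this kind was found for 0.989% of 13347 genes. Among all 8 libraries the HepG2 combination was the highest and the HepG2 control the lowest, the Hep3B-labelled control was 28.6 times the HepG2 control, and no neighbours in the order of levels had overlapping intervals. Between the controls, 11.5% of 15447 genes were past a log2 difference of 1.5 in favour of HepG2 and 14.2% against it, as AQP3 was at -4.66. In bulk RNA, more cells that express a gene and more RNA per cell cannot be told apart.

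RRAD in HepG2 was at 3.21 ± 0.599 FPKM in the control, 8.87 ± 1.06 after NaB, 52.0 ± 3.02 after Cur+Pip and 127.5 ± 6.57 after the combination. As for AQP3, the intervals did not overlap and the order was the same. The mean depth of coverage behind these levels went from 37.0 per base in the control to 1220 after the combination. RRAD in the Hep3B-labelled libraries was at 0.629 FPKM after NaB and 1.42 FPKM after the combination, and no transcript was listed in the control or after Cur+Pip. RRAD therefore passed the filter of 1 FPKM in 1 or more libraries there through the combination alone, at a level below every HepG2 library.

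VGF in HepG2 was at 2.97 ± 0.400 FPKM in the control, 0.972 ± 0.230 after NaB, 45.6 ± 2.32 after Cur+Pip and 93.9 ± 4.19 after the combination. Unlike AQP3 and RRAD, it was lower after NaB than in the control, with disjoint intervals. The Hep3B-labelled libraries held 0.741 FPKM in the control, 1.28 after NaB and 2.96 after the combination, and no VGF transcript was listed after Cur+Pip. The interval of that combination library overlapped that of the HepG2 control, and the Hep3B-labelled libraries for control and NaB overlapped each other and HepG2 after NaB.

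ARC, at chr8:142611049-142614479, was in HepG2 at 31.0 ± 1.57 FPKM after Cur+Pip and 40.9 ± 2.21 after the combination. No transcript on either strand touched its locus in the HepG2 control or after NaB. Its level in the Hep3B-labelled libraries was 0.341 ± 0.121 FPKM in the control, 1.22 ± 0.256 after NaB, 13.6 ± 0.933 after Cur+Pip and 21.2 ± 1.19 after the combination. These 4 intervals did not overlap, an ordered rise found for 0.719% of genes there. The last step rests on a 12.1 FPKM transcript just past the minimum of 50% of its length in ARC exons: when 80% was needed, the combination held 9.08 FPKM, below Cur+Pip, and the ordered rise was lost. A locus with no listed transcript is not shown to be silent: ALB, the serum albumin gene, was likewise untouched in the HepG2 control and stood at 7518 FPKM after NaB.

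**Figure D1:**
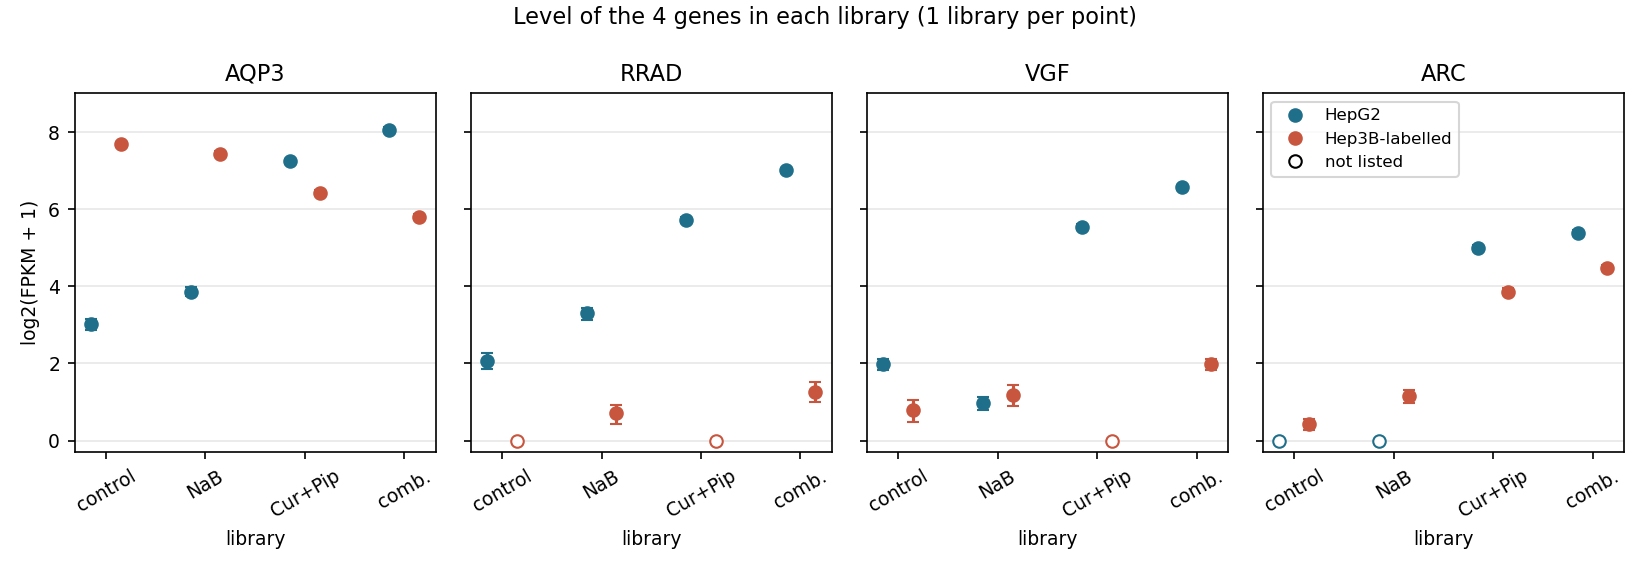
Level of each gene in the 8 libraries as log2(FPKM + 1), with bars for the 95% interval of Cufflinks; filled points are listed values, open circles libraries with no listed transcript. AQP3 climbs in HepG2 from 7.13 to 266.5 FPKM and descends in the Hep3B-labelled libraries from 203.8 to 54.7 FPKM.

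Against the control, with a log2 fold change on log2(FPKM + 1) past 1.5 in either direction as the threshold, none of the 4 genes was past it after NaB in either line. After NaB 4.7% of all HepG2 genes tested were higher and 5.06% lower, and of the Hep3B-labelled genes 4.97% and 7.01%. After Cur+Pip all 4 were higher in HepG2, beside 8.98% of all genes higher and 10.2% lower. All 4 were also higher in HepG2 after the combination, beside 8.02% of all genes higher and 11.5% lower. Nothing is read from these HepG2 counts, because the genes were picked on them. ARC enters both counts against a HepG2 control listed at 0.

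The HepG2 log2 fold change of AQP3 was 0.84 after NaB, 4.22 (interval 4.02 to 4.43) after Cur+Pip and 5.04 (4.84 to 5.25) after the combination, where the ratio of FPKM was 37.4. RRAD changed by 1.23, 3.65 (3.38 to 3.95) and 4.93 (4.66 to 5.22), and its ratio after the combination was 39.7. For VGF the values were -1.01, 3.55 (3.34 to 3.78) and 4.58 (4.38 to 4.79), with a ratio of 31.6, and the last became 2.95 when a transcript needed 80% of its exonic bases in the gene. As summed in FPKM, these 3 genes, at 2.97 to 7.13 FPKM in the control, ended between 31.6 and 39.7 times their control level. The VGF ratio did not hold at 80% of exonic bases, where VGF was at 29.6 FPKM after the combination against 2.97 in the control. The levels of AQP3 and RRAD in these HepG2 libraries were the same at 80%. No fold is given for ARC in HepG2, whose control was listed at 0.

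In the Hep3B-labelled libraries the same 4 genes went apart. After Cur+Pip 1 of them, ARC, was past the threshold and higher (6.44% of all genes), and none was lower (3.95%). After the combination ARC was higher (6.79% of all genes) and AQP3 lower (8.17%). The log2 fold change of ARC was 0.72, 3.44 and 4.05 (3.84 to 4.26) after NaB, Cur+Pip and the combination. The last was a ratio of 62.1 over a control at 0.341 FPKM, and its log2 value became 2.91 at 80% of exonic bases. For AQP3 it was -0.24, -1.25 and -1.88 (-2.01 to -1.75). The first of these stood beside a median of -0.12 over all genes and turned to 0.05 when the largest transcript alone was read. VGF was at 0.39 after NaB and 1.18 after the combination, and neither passed. In TPM, or with a pseudocount of 0.1, VGF and RRAD were also past the threshold after the combination. RRAD has no fold there, since its control was listed at 0.

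Of 11331 genes tested in both lines, 0.574% were past the threshold upward in HepG2 and downward in the Hep3B-labelled libraries after the combination, as AQP3 was, and 1.89% upward in both, as ARC was by its value after the combination against a HepG2 control at 0. Neither joint share is read as a result, because both genes were picked for their rise in HepG2. Taken alone, the lower AQP3 level in the Hep3B-labelled libraries stood beside 8.17% of all genes lower there.

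**Figure D2:**
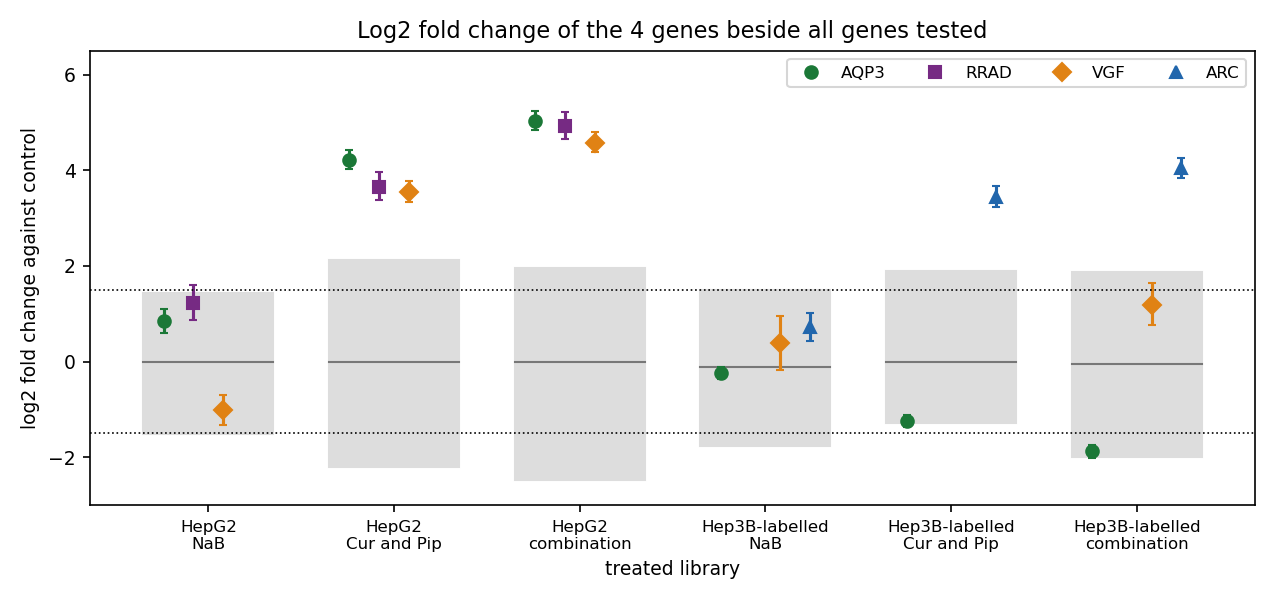
Log2 fold change against control, on log2(FPKM + 1), for each treated library; bars are intervals from Cufflinks, grey boxes span the 5th to 95th percentile of all genes tested, grey lines their median and dotted lines the threshold of 1.5. AQP3, RRAD and VGF lie above the grey box in HepG2 after Cur+Pip and the combination, ARC lies above it in the Hep3B-labelled libraries after Cur+Pip and the combination, and AQP3 lies between 0 and -2.01 there; genes with a library listed at 0 have no point.

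The combination was also set against each of its parts. Over Cur+Pip alone, the HepG2 combination was higher by log2 values of 0.82 for AQP3, 1.28 for RRAD, 1.02 for VGF and 0.39 for ARC. For VGF the direction turned, to -0.61, when a transcript needed 80% of its exonic bases in the gene, with 29.6 FPKM left after the combination against 45.6 after Cur+Pip. As summed in FPKM, all 4 pairs of intervals were disjoint, and 0 of 4 genes passed 1.5, beside 4.97% of all genes higher and 7.59% lower. In the Hep3B-labelled libraries, ARC was higher by 0.61 and AQP3 lower by a log2 change of -0.63, and VGF went from no listed transcript to 2.96 FPKM. The ARC value turned to -0.53 at 80% of exonic bases. There 4.1% of all genes were higher and 6.68% lower. Over NaB alone, the HepG2 combination was higher by 4.20 for AQP3, 3.70 for RRAD and 5.59 for VGF, with ARC listed at 0 after NaB, beside 7.53% of all genes higher and 10.5% lower. ARC was higher by 3.32 (2.19 at 80% of exonic bases) and AQP3 lower with a log2 change of -1.64 in the Hep3B-labelled libraries, beside 5.35% higher and 4.43% lower.

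The log2 change after the combination less the sum of the changes after NaB and after Cur+Pip was -0.02 for AQP3 and 0.05 for RRAD in HepG2, close to 0. Neither sign held under the alternatives, where AQP3 ranged from -0.10 to 0.19 and RRAD from -0.15 to 0.46. For VGF this excess was 2.03, with the NaB library below the control and the combination above Cur+Pip, and 0.40 at 80% of exonic bases, where the combination lay below Cur+Pip. The median over 10010 genes was 0.01. The Hep3B-labelled values were -0.39 for AQP3 and -0.12 for ARC, with a median of 0.09 over 10463 genes. ARC stood at -1.26 at 80% of exonic bases and at 0.28 with a pseudocount of 5. All of these values share the 1 control library of the line.

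The assembled transcripts of AQP3 differed between the lines in a way the choice of genes did not use. In each HepG2 library AQP3 was 1 transcript of 6 exons with all 5 annotated introns and the complete coding sequence, starting 22, 6, 160 and 72 bases before the annotated start in control, NaB, Cur+Pip and combination, inside the promoter window printed above. In every Hep3B-labelled library a second, 3-exon transcript began inside intron 3 and held exons 4 to 6, with 57.4% of the coding bases. This short transcript was at 122.9, 127.3, 56.8 and 41.8 FPKM in the order control, NaB, Cur+Pip and combination. Transcripts with all introns were at 80.9, 45.3, 28.5 and 12.9 FPKM. The short transcript therefore held 60.3, 73.8, 66.6 and 76.4% of the AQP3 level in these libraries, and 0% in each HepG2 library.

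Its assembled start lay 42, 167, 67 and 74 bases before exon 4 in control, NaB, Cur+Pip and combination. The longest of these is shown, from the first transcribed intron base after NaB, in lower case up to the end of intron 3 and in capitals for the first 30 bases of exon 4.
AQP3 intron 3 to exon 4, chr9:33442941-33443137, minus strand: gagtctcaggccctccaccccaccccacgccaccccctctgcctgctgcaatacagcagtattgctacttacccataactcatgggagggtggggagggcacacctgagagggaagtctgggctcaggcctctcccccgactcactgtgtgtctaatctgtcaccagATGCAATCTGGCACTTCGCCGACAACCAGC
The start of an assembled transcript is where its coverage ends and is not a mapped 5′ end. The log2 change of the all-intron transcripts was -0.82, -1.48 and -2.56 after NaB, Cur+Pip and the combination, and that of the short transcript was 0.05, -1.10 and -1.53. As listed in FPKM, the lower AQP3 level after NaB was in the all-intron transcripts, while the interval of the short one overlapped that of its control. Both transcripts of that NaB library ended 501 bases before the annotated end, so their FPKM is scaled to a shorter length. The short one had 1055 bases, against 1436 in the control. With depth apportioned over annotated exons AQP3 changed by -0.71 after NaB, so the short transcript is not shown to be unchanged. In the Hep3B-labelled control both all-intron transcripts carried an additional gap inside the last exon that the annotation does not have.

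**Figure D3:**
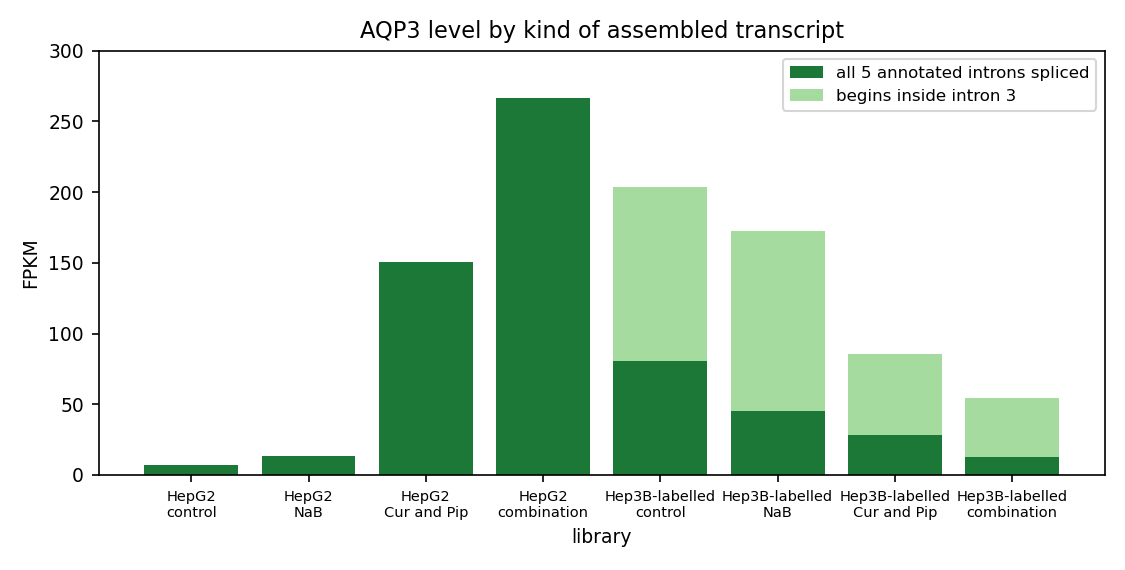
AQP3 level in FPKM in each library, 1 bar per library, split into transcripts with all 5 annotated introns (dark) and the transcript that begins inside intron 3 (light); no errors are drawn. The light share is 0% in HepG2 and 60.3 to 76.4% in the Hep3B-labelled libraries.

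RRAD kept the annotated structure in HepG2. In control, Cur+Pip and combination it was 1 transcript of 5 exons with all 4 introns. After NaB a second transcript with shifted junctions held 14.1% of its level. Of the Hep3B-labelled libraries, where the level was 1.42 FPKM or less, that after NaB held 6 exons from 2705 bases upstream, and the combination library held 3 transcripts, 1 of which started 2763 bases upstream.

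The assembled start of VGF differed between libraries. In the HepG2 control and after NaB the transcript was the annotated 2-exon form, starting within 11 bases of the annotated start. After Cur+Pip it had 3 exons and began 1895 bases upstream, with 88.2% of its length in annotated exons. After the combination a 64.3 FPKM transcript began 1110 bases upstream and ran unbroken through the promoter window printed above, including the CRE, E-box and TATA letters, so that 69.2% of its length was in annotated exons. A second transcript of 29.6 FPKM in that library covered 51.7% of the coding bases. The Hep3B-labelled control and NaB libraries held single-exon pieces with 32.9 and 36.0% of the coding bases, and the combination library held the complete coding sequence, starting 148 bases upstream. Among assigned transcripts of all genes, 1.51 to 2.26% per library began more than 1000 bases upstream of their gene.

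ARC varied in splicing. After Cur+Pip in HepG2 a transcript with both introns was at 21.1 FPKM and 1 that kept an intron at 9.94 FPKM, or 32.1% of the level. After the combination the 40.9 FPKM all lay in a transcript with both introns. In the Hep3B-labelled libraries the share in transcripts without both annotated introns was 0, 11.2, 23.5 and 42.9% in the order control, NaB, Cur+Pip and combination. These transcripts were of different kinds, so the values are not a series in 1 form of splicing. After NaB it was a 0.136 FPKM transcript with a shifted junction, and after Cur+Pip a transcript that kept an intron. After the combination it was a piece with 81.5% of the coding bases and a gap inside an annotated exon. In the combination library a 12.1 FPKM transcript with both introns and 5 exons ran 4156 bases past the annotated end, and the other, at 9.08 FPKM, ended short of it. The share of all assembled transcripts with a single exon was 16.4, 22.7, 34.1 and 32.2% in HepG2 and 14.7, 19.1, 22.4 and 28.4% in the Hep3B-labelled libraries in the same order. Its part in the forms of VGF and ARC was not tested.

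**Figure D4:**
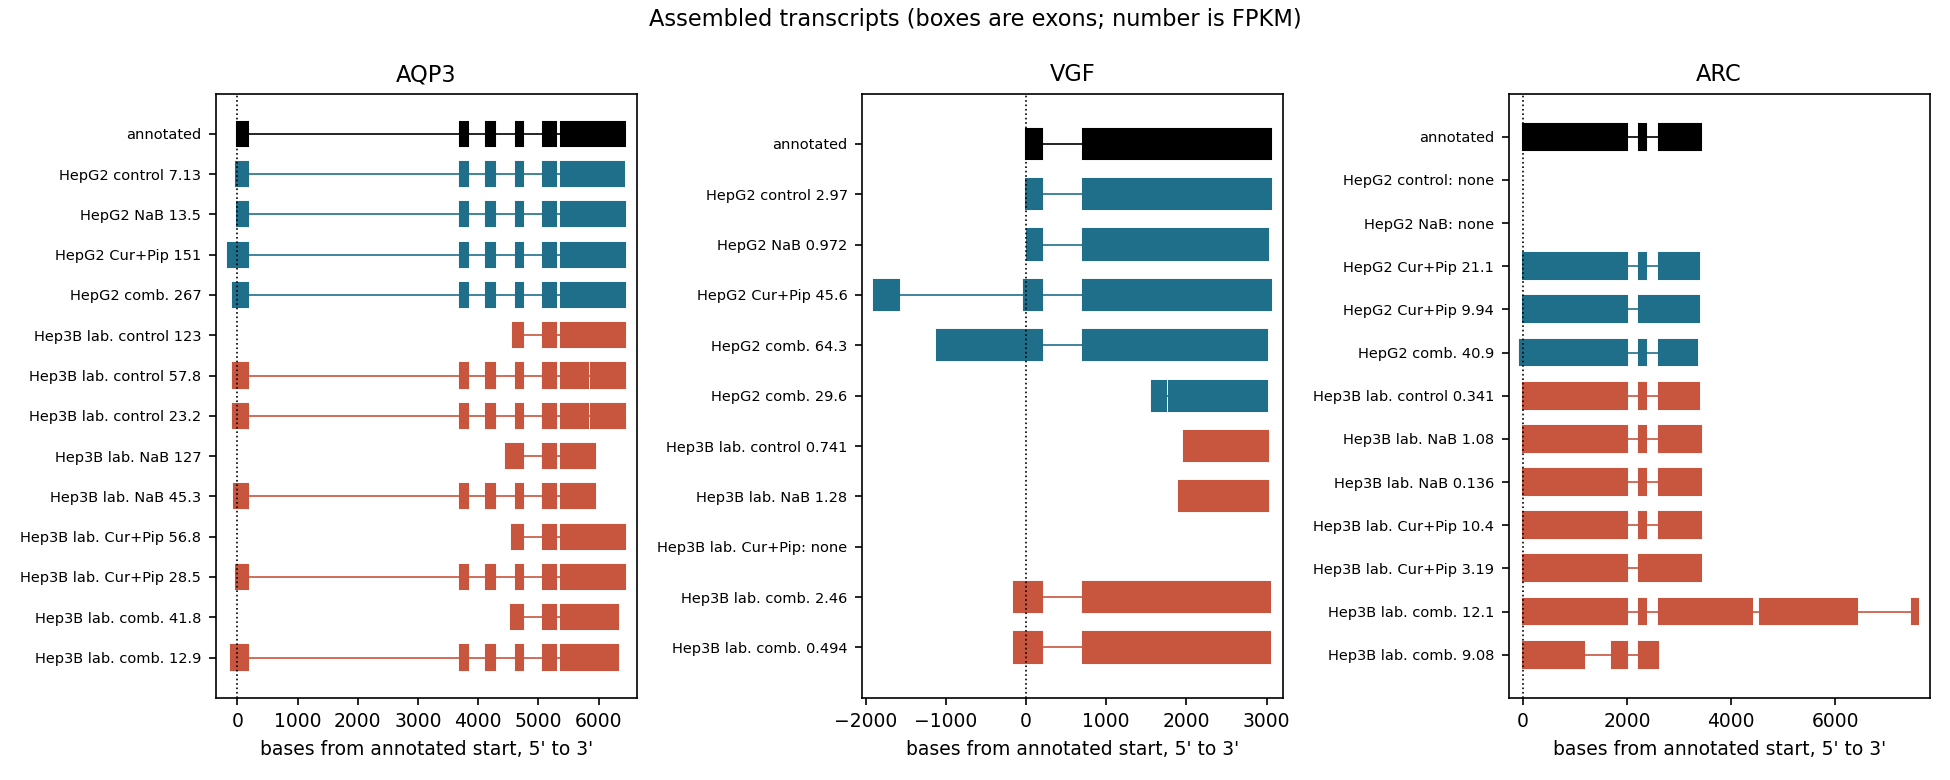
Assembled transcripts of AQP3, VGF and ARC by distance in bases from the annotated start (dotted line), boxes for exons and lines for introns, with the library and the FPKM of each transcript beside it; blue is HepG2, red the Hep3B-labelled libraries and black the annotation. The short AQP3 transcript appears only in red, VGF reaches 1895 and 1110 bases upstream in HepG2 after Cur+Pip and the combination, and 1 ARC transcript runs 4156 bases past the annotated end.

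Relatives of each gene were then counted. Beside these counts, 8.02% of all HepG2 genes were higher and 11.5% lower after the combination, and 6.79 and 8.17% in the Hep3B-labelled libraries. With so few genes measured in most lists, a count of 0 or 1 is not read as a result about the list. Of 13 other aquaporins, 5 were measured in HepG2 and 3 in the Hep3B-labelled libraries. After the combination 0 of these passed the threshold in either line, with medians of 0.27 and 0.45 beside 0.00 and -0.05 over all genes. AQP11, a channel of internal membranes, was at 7.43, 7.26, 5.29 and 9.68 FPKM in HepG2 in the order control, NaB, Cur+Pip, combination. AQP8, a water and peroxide channel, was at 0.979, 5.25, 3.13 and 2.31 FPKM and was the 1 aquaporin past the threshold after NaB. In the HepG2 control AQP11 and AQP3 were at 7.43 and 7.13 FPKM. After Cur+Pip and the combination AQP3 was the highest aquaporin in HepG2. Nothing is read from that rank, because AQP3 was picked for its rise there.

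RRAD's RGK relatives number 3, and GEM alone was measured. GEM was at 0.479, 1.38, 13.4 and 23.9 FPKM in HepG2, with log2 changes of 0.69, 3.28 and 4.07. Unlike RRAD, GEM was also past the threshold in the Hep3B-labelled libraries after the combination, at 0.772, 2.29, 3.68 and 16.1 FPKM, with log2 changes of 0.89, 1.40 and 3.27. Of 12 subunits of L-type calcium channels, the partners of RGK proteins, 3 were measured in each line and 0 passed the threshold after any treatment. CACNB3, a beta subunit of the kind that RGK proteins bind, was at 9.17, 8.73, 7.12 and 4.28 FPKM in the Hep3B-labelled libraries and at most 0.699 FPKM in HepG2.

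Granins and enzymes that process them, the group of VGF, held 11 other genes, of which 5 were measured in HepG2 and 0 passed the threshold after any treatment. CPE, a carboxypeptidase of secretory granules, went in HepG2 from 199.7 FPKM in the control to 91.2 after the combination (log2 change -1.12), and PCSK1N, an inhibitor of a prohormone convertase, from 109.3 to 55.1 (-0.98). Among 4 measured in the Hep3B-labelled libraries 1 was lower after the combination, CPE, at 8.64 and 2.24 FPKM (-1.57), and GNAS was lower after Cur+Pip alone (-2.08).

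Activity-regulated genes, which ARC belongs to, held 29 others. Of 20 measured in HepG2, 9 were higher and 0 lower after Cur+Pip (median 1.44, beside 0.00 over all genes), and 10 were higher and 2 lower after the combination (median 1.61). Of all HepG2 genes, 8.98% were higher and 10.2% lower after Cur+Pip, and 8.02 and 11.5% after the combination. The 2 lower ones, MCL1 and PPP1R15A, were listed at 0 in that library although transcripts touched their loci, and are not read as a fall. Of 22 measured in the Hep3B-labelled libraries, 0 were higher and 5 lower after Cur+Pip (median -0.36, beside 0.00), of which SIK1 was listed at 0 in that library and is likewise not read as a fall, and 1 was higher and 3 lower after the combination (median 0.03, beside -0.05). Of all genes there, 6.44% were higher and 3.95% lower after Cur+Pip, and 6.79 and 8.17% after the combination. ARC was thus past the threshold in libraries where most of the list was not. ATF3, a stress-induced transcription factor, was at 5.19, 3.49, 27.5 and 55.9 FPKM in HepG2 and 40.3, 16.2, 18.7 and 77.3 in the Hep3B-labelled libraries. IER2, another immediate early gene, was at 11.8 FPKM untreated and 153.6 after the combination in HepG2 (log2 change 3.60), and at 141.6 and 75.3 (-0.90) in the Hep3B-labelled ones. EGR1, whose product binds GCGNGGGCG and which was chosen after its values were seen, was at 24.3, 4.43, 116.4 and 94.7 FPKM in HepG2 and at 18.8, 2.91, 5.63 and 4.18 in the Hep3B-labelled libraries.

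**Figure D5:**
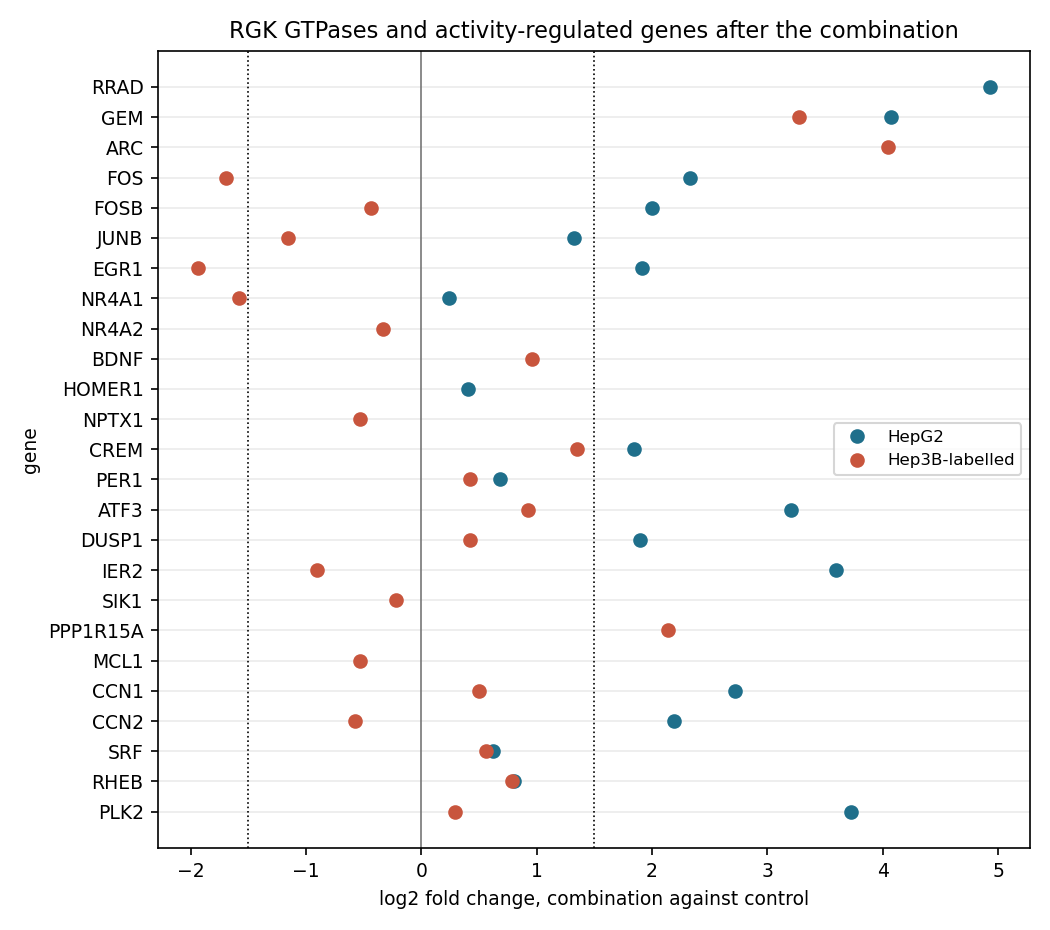
Log2 fold change after the combination, on log2(FPKM + 1), for RGK GTPases and activity-regulated genes with at least 5 FPKM in 1 or more libraries, 1 point per line (blue HepG2, red the Hep3B-labelled libraries); dotted lines mark 1.5 and -1.5, and a gene listed at 0 in the library or its control has no point. GEM is past 1.5 in both lines, ARC is at 4.05 in red, and EGR1 and FOS are past 1.5 in blue and past -1.5 in red.

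Of 20 other genes derived from gag, 7 were measured in HepG2 and 9 in the Hep3B-labelled libraries. PNMA1, like ARC a gene with a gag-like protein, went in HepG2 from 17.2 FPKM untreated to 64.0 after the combination (log2 change 1.84) and was the 1 member higher in HepG2. RTL8B was the 1 lower in the Hep3B-labelled libraries, after NaB (-1.73) and after the combination (-1.88). PEG10, a gag-derived gene of placenta and liver tumours, was at 252.7 FPKM in untreated HepG2, 27.0 after Cur+Pip (-3.18) and 97.4 after the combination (-1.37). It was the 1 gag-derived gene past the threshold after Cur+Pip in HepG2, beside 10.2% of all genes lower. PEG10 went from 138.4 to 64.0 FPKM after the combination in the Hep3B-labelled libraries (-1.10).

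Genes with the pattern most like each of the 4 were ranked among 10570 protein-coding genes by the mean absolute difference over the 6 log2 fold changes. This measure is a description, since the 3 changes of a line share their control. It counts a gene listed at 0 as 0 FPKM, so the HepG2 part for ARC, the Hep3B-labelled part for RRAD and the Hep3B-labelled Cur+Pip value for VGF rest on such libraries. Zeros of the other gene enter in the same way. AQP3 was nearest to HNRNPA2B1 (0.62), CTH (0.75), an enzyme of cysteine synthesis, and MMP3 (0.76). CTH was listed at 0 in the HepG2 control, on which its 3 HepG2 changes rest. HNRNPA2B1, an abundant RNA-binding protein gene, was at 6.01 FPKM in the HepG2 control against 301.6 in the Hep3B-labelled control. Unlike AQP3 it was higher after NaB in the Hep3B-labelled libraries, at 539.7 FPKM. Whether transcripts of HNRNPA2B1 were lost in assembly or assignment in the HepG2 control was not tested. Its 3 HepG2 changes rest on that control level. RRAD was nearest to NRARP (0.46), a Notch feedback gene, MMP3 (0.66) and BRD2 (0.67), a reader of acetylated histones. NRARP was listed at 0 in the HepG2 control and was at 0.413, 11.2 and 14.5 FPKM after NaB, Cur+Pip and the combination. MMP3, a secreted matrix protease, was at 1.70, 2.18, 48.2 and 59.3 FPKM in HepG2 and listed at 0 in every Hep3B-labelled library. VGF was nearest to DUSP5 (0.50), NRARP (0.60) and RGS2 (0.65), a regulator of G protein signalling. RGS2 was listed at 0 after NaB in HepG2. DUSP5, a phosphatase of nuclear ERK, was at 10.7, 3.81, 119.3 and 86.0 FPKM in HepG2, lower after NaB and higher after Cur+Pip as VGF was. ARC was nearest to GADD45B (0.98), TEN1-CDK3 (0.99) and SNAI1 (1.07). TEN1-CDK3 is a readthrough gene whose exons are shared with TEN1 and CDK3, so its assignment is uncertain. It was also listed at 0 in the HepG2 control, after NaB in HepG2 and in the Hep3B-labelled control. SNAI1, a transcription factor of epithelial to mesenchymal transition, was at 3.41 FPKM untreated and 38.6 after the combination in HepG2, and at 1.10 and 26.2 in the Hep3B-labelled libraries. GADD45B, a stress-induced growth arrest gene, was at 7.68, 6.41, 80.5 and 179.0 FPKM in HepG2 and 15.7, 18.1, 45.3 and 217.0 in the Hep3B-labelled libraries.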

How the data were processed

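RNA of 8 cultures or pools, 1 library per condition, was sequenced by the authors from a stranded kit in paired ends, mapped to GRCh38 with STAR and assembled per library with Cufflinks. Neither the versions nor any pooling of the triplicate RNA isolations is given in the sources used here. Values in FPKM, as deposited, are given per assembled transcript, with a 95% interval, under identifiers that name no gene. FastQC and Cuffdiff are also named in the submitters' processing notes.

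Overlaps were computed with bedtools 2.31.1. A transcript went to the gene of GENCODE release 44 that held at least 50% of its exonic bases on its own strand, and FPKM was summed per gene. Intervals of several transcripts were combined in quadrature. Each library held 24846 to 36652 transcripts, of which 70.4 to 88.1% were assigned, to 12216 to 13031 genes. FPKM was scaled by Cufflinks in each library separately. At 1 FPKM the mean depth was 9.57 to 12.6 per base, and intervals cover the estimation error of 1 library only.

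Fold changes are log2((FPKM + 1) / (FPKM + 1)) over genes with 1 FPKM or more in 1 or more of the 4 libraries of a line, and the threshold of 1.5 follows the methods. With 1 library per condition no test was run. No fold is given against a library listed at 0, but the counts past the threshold include such genes. Python 3.11.15, numpy 2.4.6, pandas 2.3.3 and matplotlib 3.10.9 were used, and the steps were tested on simulated data.

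The 4 genes, the gene lists and the alternatives were chosen with earlier results of these data known. Named beside the 4 genes were the 3 protein-coding genes nearest to each, and from each of 9 lists up to 4 genes with at least 5 FPKM in 1 or more libraries and the largest mean absolute change after the combination. Alternatives were a pseudocount of 0.1 or 5, a threshold of 1 or 2, no filter, the largest transcript, 80% of exonic bases, transcripts of at least 300 bases, an FPKM of at least 5, disjoint intervals beside the fold, assignment without strand, median-of-ratios scaling, TPM, and depth apportioned over annotated exons.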

Additional observations from a re-analysis of the deposited data

Results flagged for a closer look

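AQP3 had values of opposite sign in the 2 lines after each treatment. Its log2 fold change against control was 0.84 in HepG2 and -0.24 in the Hep3B-labelled libraries after NaB, 4.22 and -1.25 after Cur+Pip, and 5.04 and -1.88 after the combination. The direction after NaB in the Hep3B-labelled libraries did not hold: the value stood beside a median of -0.12 over all genes and turned to 0.05 with the largest transcript alone. It was -0.06 with median-of-ratios scaling and -0.71 with depth apportioned over annotated exons. With 1 library per condition the difference between the lines was not tested. The short transcript from intron 3 held 0% of the AQP3 level in HepG2 and 60.3 to 76.4% in the Hep3B-labelled libraries, where the transcripts with all 5 introns alone changed by -0.82, -1.48 and -2.56.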

How the results depend on the processing

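Of 84 alternative counts of the 4 genes past the threshold, 75 were within 1.5 times the main count. Some settings could not have moved the count and say nothing on its stability. All transcripts of the 4 genes were longer than 300 bases, and none on the other strand touched their loci. A change past the threshold also needs more than the 1 FPKM of the filter. After NaB, where the main count was 0 in both lines, a pseudocount of 0.1 gave 1 gene in HepG2 (VGF, lower) and 2 in the Hep3B-labelled libraries, and a threshold of 1 gave 2 in HepG2. In the Hep3B-labelled libraries after Cur+Pip, a pseudocount of 0.1 or a threshold of 1 gave 2 genes in place of 1. After the combination a pseudocount of 0.1, a threshold of 1 and TPM each gave 4 in place of 2, a threshold of 2 gave 1, and depth apportioned over annotated exons gave 3. In HepG2 after Cur+Pip and after the combination the count was 4 under every alternative run, with ARC counted against a control listed at 0. These counts are among the 75, and nothing is read from them because the genes were picked on those values. AQP3 after NaB in the Hep3B-labelled libraries changed sign, from -0.24 to 0.05, with the largest transcript alone, which there is the short one, and was -0.71 with depth apportioned over annotated exons. VGF after the combination in HepG2 was 2.95 at 80% of exonic bases, because the long upstream transcript is dropped, and 3.63 with a pseudocount of 5. ARC after the combination in the Hep3B-labelled libraries ranged from 2.29 with a pseudocount of 5 to 5.59 with one of 0.1, and was 2.91 at 80% of exonic bases, because the transcript that runs past the annotated end is dropped. Under alternatives added after seeing the data, the change from Cur+Pip to the combination turned at 80% of exonic bases for VGF in HepG2, from 1.02 to -0.61, and for ARC in the Hep3B-labelled libraries, from 0.61 to -0.53, and the excess of VGF went from 2.03 to 0.40. The number of all genes past the threshold ranged from 596 to 2422 after NaB, from 1121 to 4702 after Cur+Pip and from 1194 to 4672 after the combination in HepG2, around main counts of 1310, 2575 and 2624, and from 697 to 3205, 661 to 2475 and 946 to 3853 in the Hep3B-labelled libraries, around 1600, 1387 and 1996. TPM moved the median of all genes by 0.15 after Cur+Pip in the Hep3B-labelled libraries, and median-of-ratios scaling moved it from -0.12 to 0 after NaB, with AQP3 then at -0.06. No paired analysis was possible because the labels give no replicate numbers and each condition is 1 library. Low levels limit RRAD and VGF in the Hep3B-labelled libraries, which were below 3 FPKM. They also limit ARC there, whose changes against control rest on a control level of 0.341 FPKM.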
